A study of Sus scrofa with 6 samples.

Results

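The nuclear genes of respiratory complexes II to V were taken from the protein-coding gene table of a brain RNA sequencing study of pigs. Members were chosen by symbol, as genes whose name begins with SDH, UQCR, COX4, COX5, COX6, COX7, COX8 or ATP5, together with CYC1, leaving out the SDHAF assembly factors. The rule found 35 of 21280 genes, with 4 in complex II, 7 in complex III, 13 in complex IV and 11 in complex V. It read symbols only, and 14821 of the 21280 identifiers had one, so subunits without a matched symbol are not analysed here.

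The study compared 3 wild boars with 3 Rongchang pigs, a Chinese domestic breed, and the labels give every animal as a female aged 2 years. Tissue is labelled brain for the wild boars and cerebrum for the domestic pigs, while the series title names the prefrontal cortex. The domestic pig libraries were labelled as a re-analysis of earlier ones. Breed, tissue label and source of the libraries therefore cannot be told apart in any comparison here. No allele, transgene or treatment was named for either group.

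The respiratory chain sits in the inner mitochondrial membrane. Complex II, succinate dehydrogenase, passes electrons from the tricarboxylic acid cycle to ubiquinone, complex III passes them on to cytochrome c, and complex IV hands them to oxygen. Complexes III and IV pump protons, and complex V, the ATP synthase, uses the resulting gradient to make ATP. Complex II is encoded wholly in the nucleus, whereas complexes III, IV and V join nuclear subunits to a few that mitochondrial DNA encodes. In the brain most of the ATP spent on ion pumping and synaptic transmission comes from this chain.

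Expression was given as TPM, read counts scaled by transcript length and by the library's total, so that levels of different genes can be compared within a library. The protein-coding TPM of a library summed to between 17.2% and 40.9% of the total to which TPM is scaled, and the deposited values of most members followed that sum. On deposited TPM, wild boar 2 held the lowest value of 29 of the 34 members tested and domestic pig 3 the highest value of 24. Values were therefore also rescaled, by dividing each library by its median ratio to the geometric mean of all libraries. After rescaling, domestic pig 2 held the lowest value of 32 of the 34, so for these genes it stood apart within its group. Such counts over all genes tested are not given, so whether this is particular to the members cannot be told. TPM keeps no read depth, so no counting interval can be given. In whole tissue, fewer cells of a type and less RNA per cell cannot be told apart. Neuronal and glial markers were present in every group, with the summed deposited TPM of 9 neuron markers between 827 and 2019 in the wild boars and between 1311 and 2360 in the domestic pigs.

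Nuclear respiratory chain genes were among the most abundant messages of the tissue. The median of the 34 tested members lay between the 94.7th and 95.8th percentile of all 11752 genes tested in every library, and 23 of the 34 stayed at or above the 90th percentile in all 6. Together the 35 members made 1.43% ± 0.065 of the protein-coding TPM in the wild boars and 1.20% ± 0.195 in the domestic pigs (SD, n = 3 each). Wild boars 1, 2 and 3 were at 1.504%, 1.37% and 1.42%, and domestic pigs 1, 2 and 3 at 1.36%, 0.982% and 1.25%, the order in which single values are given throughout. All 3 wild boar values were above all 3 domestic pig values, with domestic pig 2 the lowest. The gap between wild boar 2 and domestic pig 1 was narrow, and the protein-coding sum also holds the mitochondrially encoded genes.

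Levels differed widely between subunits that take part in the same complex. Mean TPM over the 6 libraries exceeded 100 for 13 members and 300 for COX7A2 (443.2), COX7B (362) and ATP5MK (347). COX7A2 and COX7B are small subunits of complex IV, and ATP5MK is a small membrane subunit of the ATP synthase. The most abundant genes of the other complexes were UQCRQ (122), a small subunit of complex III, and SDHB (57.7), the iron-sulfur subunit of complex II. The lowest of those tested were the tissue-restricted isoforms COX6A2 (3.25), COX4I2 (4.73) and COX7A1 (5.65). COX6B2, the testis isoform of subunit 6B, was the 1 member that missed the filter of at least 1 TPM in at least 3 libraries. It was listed at 0.239, 0 and 0.201 TPM in the wild boars and at 0.129, 0.197 and 0.246 in the domestic pigs.

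**Figure D1:**
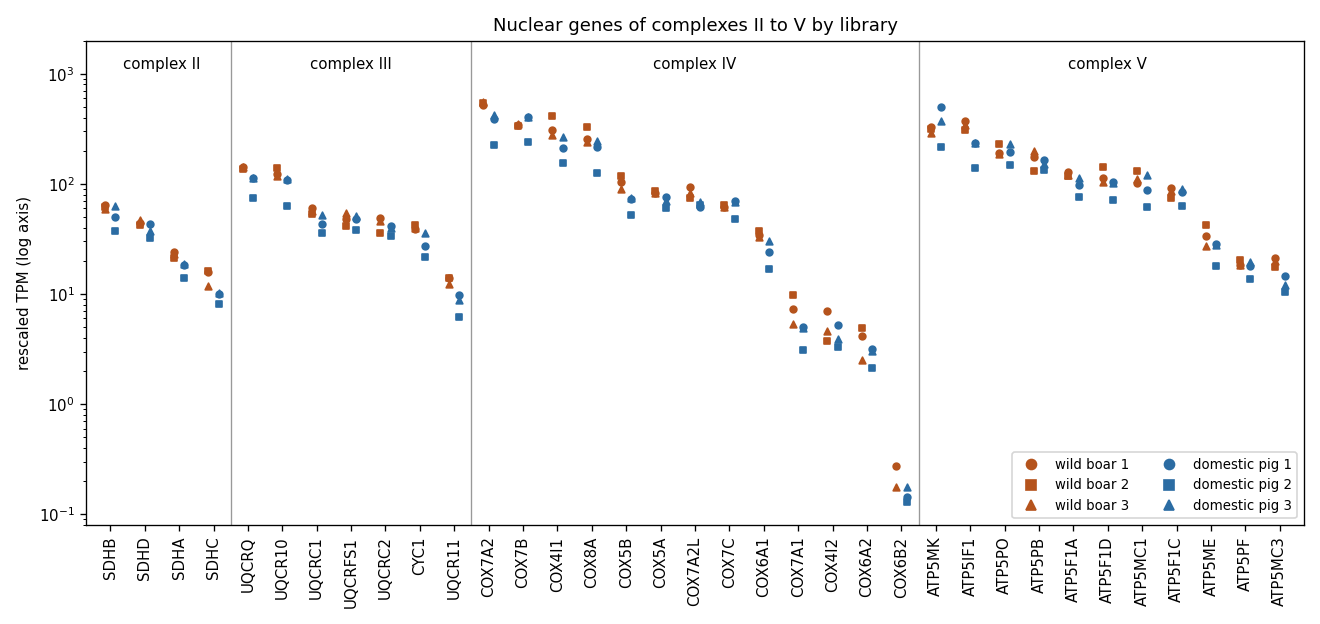
Rescaled TPM on a log axis of the 35 members, ordered by complex and by mean level, with 1 point per library (wild boar left, domestic pig right of each gene). The value of 0 for COX6B2 in wild boar 2 cannot be drawn, and domestic pig 2 lies lowest for 32 of the 34 tested members.

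The main question was whether wild boars and domestic pigs differ in these genes. On deposited TPM 0 of 34 passed an adjusted p of 0.05 in limma's moderated test on log2(TPM + 1), fitted over all 11752 genes, where 1.6% of genes passed, 0.136% higher and 1.46% lower in wild boar. The count at an unadjusted p under 0.05 was also 0, against 2091 genes of the table. Log2 fold changes, wild boar minus domestic pig, ran from -0.72 (ATP5MK) to 0.20 (ATP5IF1), each with a standard error (SE) between 0.35 and 0.42. After rescaling 5 of 34 passed, all higher in wild boar, and the range was -0.14 to 0.78. These 5 make 14.7% of the members, against 11.6% of all genes that passed as higher, 7.91% as lower and 19.5% in either direction, so the share of members called was close to the background. Higher calls made 59.5% of all calls here, and 48.3% with upper-quartile scaling and 42.5% with quantile scaling, where 5 and 3 members passed, again all higher.

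The members' median log2 fold change was 0.37 after rescaling, against 0.07 for all genes tested. Of the members 33 of 34 were above 0, against 57.7% of all genes. On deposited TPM the medians were -0.20 and -0.41, and 9 of 34 members were above 0. Measured against the median of all genes, the members therefore stood 0.30 higher after rescaling and 0.21 higher on deposited TPM. For most members the sign of the fold change depends on which scaling is used. After rescaling 17 of 34 members had all 3 wild boar values above all 3 domestic pig values, against 24.0% of all genes tested. On deposited TPM no member's groups were separate in either direction, against 0.408% of genes above and 17.1% below.

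Domestic pig 2 weighed on the size of this shift. Without it the members' median after rescaling was 0.21, and the distance to the median of all genes was 0.16. Without any other library the median was between 0.35 and 0.50. On deposited TPM the median turned to 0.08 without wild boar 2 and to 0.02 without domestic pig 3.

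**Figure D2:**
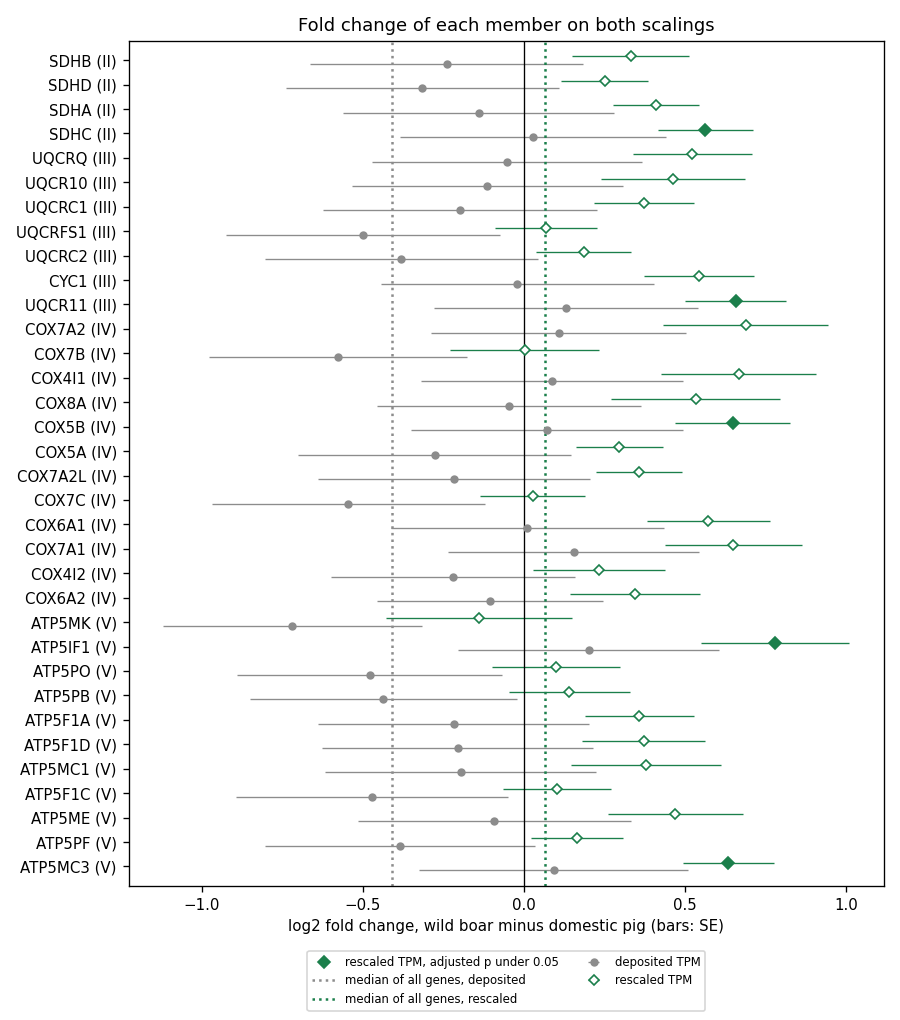
Log2 fold change of the 34 tested members, wild boar minus domestic pig, with bars of 1 SE, on deposited (grey circles) and rescaled TPM (green diamonds, filled where the adjusted p was under 0.05). Dotted lines mark the medians of all genes tested, -0.41 and 0.07, and 5 diamonds are filled.

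In complex II, all 4 genes were above 0 after rescaling and SDHC rose. Over all genes tested 57.7% were above 0 and 11.6% passed as higher, the background for this and the following complexes. SDHC and SDHD encode the membrane anchors that hold the ubiquinone site. Rescaled SDHC (ENSSSCG00000030318) was at 15.7, 16.04 and 11.7 TPM in the wild boars and at 10.02, 8.11 and 10.2 in the domestic pigs. The groups did not overlap, and wild boar 3 was nearest to the domestic pigs. Its log2 fold change was 0.56 (SE 0.15, limma adjusted p = 0.0313), against 0.03 on deposited TPM. SDHA, the flavoprotein that oxidises succinate, had a log2 fold change of 0.41 (SE 0.13, limma adjusted p = 0.0590) with separate groups. SDHB, the most abundant, was at 64.8, 61.6 and 59.3 rescaled TPM in the wild boars and at 50.1, 37.3 and 62.8 in the domestic pigs, so domestic pig 3 lay among the wild boars. SDHD was at 44.1, 42.2 and 47.3 in the wild boars and at 42.9, 32.2 and 37.3 in the domestic pigs, also with overlap. Their log2 fold changes were 0.33 and 0.25, and on deposited TPM SDHD had the lowest value of the complex, -0.31.

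In complex III, all 7 genes were above 0 after rescaling and UQCR11, a small subunit without a redox centre, rose. Rescaled UQCR11 (ENSSSCG00000013436) was at 13.8, 14.1 and 12.2 TPM in the wild boars and at 9.77, 6.18 and 8.76 in the domestic pigs. The lowest wild boar value exceeded the highest domestic pig value. Its log2 fold change was 0.66 (SE 0.16, limma adjusted p = 0.0247), against 0.13 on deposited TPM. CYC1, the haem protein that passes electrons to cytochrome c, was at 0.54 (SE 0.17, limma adjusted p = 0.0541), just outside the threshold. UQCRQ, the most abundant, was at 143, 136 and 143 rescaled TPM in the wild boars and at 112, 73.7 and 113 in the domestic pigs. UQCRQ and UQCR10, both small subunits, were at 0.52 and 0.46, and the core protein UQCRC1 at 0.37, each with separate groups and none of them passing.

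The remaining members of complex III lay lower. UQCRC2, the other core protein, was at 0.19 and UQCRFS1, the Rieske iron-sulfur protein, at 0.07 (limma adjusted p = 0.786). Rescaled UQCRFS1 was at 48.1, 41.5 and 54.5 TPM in the wild boars and at 48.4, 37.7 and 51.6 in the domestic pigs, and the groups overlapped over most of their range.

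In complex IV, all 12 tested genes were above 0 after rescaling and COX5B rose. COX5B encodes a zinc-binding subunit on the matrix side of cytochrome c oxidase. Rescaled COX5B (ENSSSCG00000008195) was at 104.8, 117 and 89.0 TPM in the wild boars and at 73.2, 52.0 and 73.7 in the domestic pigs. All wild boar values were above all domestic pig values. Its log2 fold change was 0.65 (SE 0.18, limma adjusted p = 0.0362), against 0.07 on deposited TPM.

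The broadly expressed isoforms of complex IV had changes of like size that did not pass. COX7A2 was at 518, 546 and 552 rescaled TPM in the wild boars and at 389, 225 and 425 in the domestic pigs, a log2 fold change of 0.69 (SE 0.26, limma adjusted p = 0.0875). COX4I1, the broadly expressed form of the largest nuclear subunit, was at 0.67 (SE 0.24, limma adjusted p = 0.0797) and COX6A1 at 0.57 (SE 0.19, limma adjusted p = 0.0641). In each of these 3 genes the groups were separate, and the domestic pig libraries were spread over a wide range with domestic pig 2 lowest. In COX4I1 the wild boars were widely spread too, at 310, 413 and 280 rescaled TPM against 213, 156 and 269 in the domestic pigs. COX8A was at 0.53 with overlapping groups. COX5A, which pairs with subunit 4, was at 0.30, and COX7A2L, a factor that joins complexes III and IV into supercomplexes, at 0.36, both with separate groups.

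COX7B and COX7C did not share this shift. Rescaled COX7B was at 344.5, 333 and 349 TPM in the wild boars and at 407, 242 and 405 in the domestic pigs, so the 3 wild boar values lay inside the domestic pig range. Its log2 fold change was 0.00 (SE 0.23, limma adjusted p = 0.994). COX7C, another small subunit, was at 0.03 (SE 0.16, limma adjusted p = 0.919). On deposited TPM they had the lowest values of the complex, -0.58 and -0.54, neither of them passing.

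In complex V, 10 of 11 genes were above 0 after rescaling and 2 rose. ATP5IF1 encodes the inhibitor that blocks the ATP synthase from running backwards and splitting ATP. Rescaled ATP5IF1 (ENSSSCG00000027072) was at 373, 308 and 345.1 TPM in the wild boars and at 236, 139.9 and 236 in the domestic pigs. Every wild boar value was above every domestic pig value. The log2 fold change, the largest of the members, was 0.78 (SE 0.23, limma adjusted p = 0.0456), against 0.20 on deposited TPM.

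ATP5MC3, a gene for the c subunit of the rotating membrane ring, had the lowest p of the members. Rescaled ATP5MC3 (ENSSSCG00000015973) was at 21.4, 17.6 and 19.8 TPM in the wild boars and at 14.6, 10.4 and 12.1 in the domestic pigs, again without overlap. Its log2 fold change was 0.63 (SE 0.14, limma adjusted p = 0.0201), against 0.09 on deposited TPM. ATP5MC1 encodes the same mature c subunit with another import sequence. It was at 0.38 (SE 0.23, limma adjusted p = 0.269), with overlapping groups.

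The head, stalk and small membrane subunits of the ATP synthase were spread between these values and 0. ATP5F1A, the alpha subunit of the head, was at 0.36 with separate groups, and ATP5F1D and ATP5F1C, subunits of the central stalk, were at 0.37 and 0.10. The peripheral stalk genes ATP5PF, ATP5PB and ATP5PO were at 0.16, 0.14 and 0.10. ATP5ME, a small membrane subunit, was at 0.47, and none of these passed. Of the 34 members, only ATP5MK was below 0 after this rescaling, at -0.14 (SE 0.29, limma adjusted p = 0.758), whereas 31 members were above 0 with upper-quartile scaling and 27 with quantile scaling. Its rescaled TPM was 329, 313 and 293 in the wild boars and 504, 215 and 371 in the domestic pigs, so that the wild boar values fell within a much wider domestic pig range. On deposited TPM ATP5MK had the lowest value of all members, -0.72 (SE 0.40, limma adjusted p = 0.315).

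The 5 calls were close to the threshold. A further 8 members had an adjusted p between 0.05 and 0.1 after rescaling. With 1 library left out, between 0 and 4 members passed: 0 without wild boar 1, 1 without wild boar 2, 2 without wild boar 3, 2 without domestic pig 1, 3 without domestic pig 2 and 4 without domestic pig 3. ATP5MC3 passed without wild boar 2 or any of the domestic pigs and missed the threshold without wild boar 1 (limma adjusted p = 0.0633) or wild boar 3 (0.0613). COX5B missed the threshold in all 6 of these fits, with limma adjusted p between 0.0512 and 0.111. UQCR11, ATP5IF1 and SDHC reached at most 0.0774, 0.125 and 0.101 in them. SDHC passed without wild boar 3 only, and ATP5IF1 without domestic pig 2 only. Members outside the 5 that passed in such a fit were COX7A1 without wild boar 3, and COX6A1 and CYC1 without domestic pig 3. Genes of the respiratory chain have near-identical processed copies in mammalian genomes whose reads the counting could share, so levels of single members are uncertain.

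The members were also compared with one another within each library, where the scaling matters little. Each member was set against the median member of its library on log2(TPM + 1) of the deposited values. Of 34 members, 12 were higher in wild boar without overlap and 2 were lower, against 9.06% and 19.9% of all genes tested that were set against the same median. The median member averaged 5.90 log2 units in the wild boars and 6.25 in the domestic pigs. This reference was thus lower in wild boar by more than the members' median log2 fold change of -0.20. It lifts the relative differences of all members, and the balance of 12 to 2 depends on it. ATP5IF1 was 2.33, 2.14 and 2.25 log2 units above the median member in the wild boars and 1.83, 1.48 and 1.76 above it in the domestic pigs. COX7A2, ATP5MC3, COX4I1, COX5B and UQCR11 were likewise higher against the median member in every wild boar library, by mean differences between 0.42 and 0.48. The 2 lower were COX7C and ATP5F1C, by -0.20 and -0.12. The reference is the midpoint of the 2 middle members, and COX7C was 1 of these 2 in every library except wild boar 1. COX7C, between -0.24 and 0.10 log2 units from the reference in all 6 libraries, was thus partly compared with itself. Its separation cannot be read as a difference between the groups. ATP5MK and COX7B had lower means, by -0.37 and -0.23, with overlapping groups. On rescaled TPM 12 and 2 members were again separate, and 13 and 2 with no pseudocount. The difference of COX7A1, whose groups overlapped, was 0.50 on deposited and 0.42 on rescaled TPM, and that of UQCR11 was 0.48 and 0.43. These differences describe the members against one another and were not tested.

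**Figure D3:**
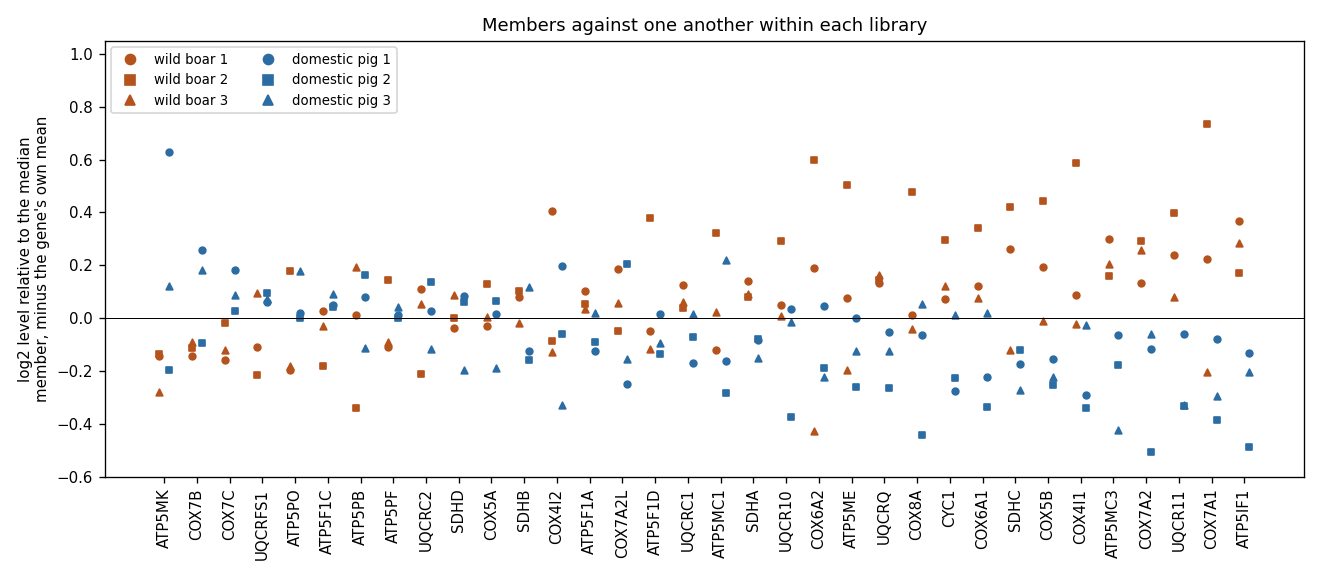
Log2 level of each of the 34 tested members relative to the median member of the same library, less the gene's own mean over the 6 libraries, ordered by the difference between wild boar and domestic pig. ATP5IF1 lies at the right end, higher in all 3 wild boars, and ATP5MK at the left end, where its groups overlap.

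Complex IV and the ATP synthase exist in tissue forms, and the balance of isoform genes was compared within libraries. COX4I2, the lung and pericyte form, made 2.20%, 0.892% and 1.62% of COX4I2 plus COX4I1 TPM in the wild boars and 2.37%, 2.09% and 1.42% in the domestic pigs. COX6A2, the heart and skeletal muscle form, made between 7.07% and 11.6% of the 6A pair in the wild boars and between 9.02% and 11.7% in the domestic pigs. COX7A1, also a muscle form, made between 0.954% and 1.75% of the 7A pair in the wild boars and between 1.13% and 1.37% in the domestic pigs. ATP5MC1 made between 82.6% and 88.1% of ATP5MC1 plus ATP5MC3 in the wild boars and between 85.6% and 90.9% in the domestic pigs. The ranges overlapped in all 4 pairs.

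The log2 isoform ratios differed between wild boar and domestic pig by -0.31 (COX4I2 to COX4I1), -0.12 (COX6A2 to COX6A1), 0.05 (COX7A1 to COX7A2) and -0.29 (ATP5MC1 to ATP5MC3). Their SD within a group was between 0.19 and 0.49 (n = 3 each). Two-sided exact permutation tests gave p = 0.6, 0.6, 0.9 and 0.4, or 0.8, 0.8, 0.9 and 0.8 after Benjamini-Hochberg adjustment over the 4 pairs. With 3 against 3 the smallest possible p is 0.1, so these tests could not reach 0.05. The restricted forms themselves had rescaled log2 fold changes of 0.23 (COX4I2), 0.34 (COX6A2) and 0.65 (COX7A1), none of them passing. Rescaled COX7A1 was at 7.35, 9.72 and 5.31 TPM in the wild boars and at 5.05, 3.13 and 4.86 in the domestic pigs, with a narrow gap between the groups. The muscle marker list summed to between 3.34 and 19.7 deposited TPM in the wild boars and between 6.71 and 13.6 in the domestic pigs, and its part in the muscle isoforms was not tested.

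By complex, the nuclear members of complex IV took the largest share of protein-coding TPM and differed most between the groups in percentage points. They made 0.681%, 0.669% and 0.650% in the wild boars and 0.585%, 0.424% and 0.564% in the domestic pigs. Complex III made 0.178%, 0.153% and 0.171% in the wild boars and 0.149%, 0.115% and 0.139% in the domestic pigs. Complex II made 0.0556%, 0.0467% and 0.0516% in the wild boars and 0.0461%, 0.0390% and 0.0437% in the domestic pigs. In these 3 complexes every wild boar value was above every domestic pig value, by a narrow margin in complexes II and III. The shares of complex V overlapped, at 0.589%, 0.506% and 0.55% in the wild boars and 0.584%, 0.404% and 0.5003% in the domestic pigs. Without domestic pig 2 the difference in mean share fell from 0.142 to 0.0921 percentage points in complex IV and from 0.0525 to 0.00646 in complex V. In complexes II and III it stayed between 0.00625 and 0.0107 and between 0.0234 and 0.0404 without any single library. The protein-coding sum also holds the abundant mitochondrially encoded genes, so a share moves with them too. The 6 of complexes III to V summed to between 26281 and 43666 deposited TPM in the wild boars and between 31426 and 91049 in the domestic pigs. How far the narrow separations depend on these genes was not tested, and shares without them are not given. Median rescaled log2 fold changes were 0.37, 0.46, 0.44 and 0.36 in complexes II, III, IV and V.

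**Figure D4:**
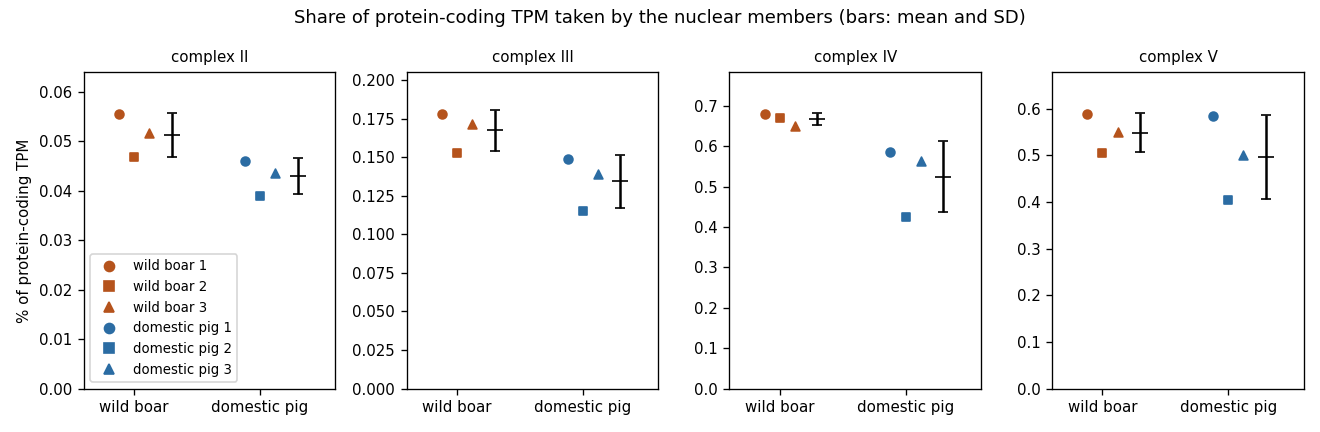
Percent of the protein-coding TPM of each library taken by the nuclear members of complexes II, III, IV and V, with a point per library and the mean and SD of each group beside them (n = 3 each, axes from 0). Wild boar lies above domestic pig without overlap in complexes II, III and IV, narrowly in II and III, and domestic pig 2 is lowest in all 4 panels. The sum includes the mitochondrially encoded genes.

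Complexes III, IV and V need mitochondrially encoded partners, and the balance of both sources was compared within libraries. For complex IV, the summed TPM of COX1, COX2 and COX3 was 15.4, 19.2 and 17.8 times that of the nuclear members in the wild boars and 20.8, 30.2 and 36.4 times in the domestic pigs. Every wild boar library thus had fewer mitochondrially encoded transcripts per nuclear transcript than every domestic pig library, with means of 17.5 ± 1.90 and 29.1 ± 7.85 (SD, n = 3 each). For complex III, the ratio of CYTB to its nuclear partners was 1.88 ± 0.630 in the wild boars and 2.09 ± 1.03 in the domestic pigs (SD, n = 3 each). For complex V, the ratio of ATP6 plus ATP8 to the nuclear members was 3.41 ± 1.08 and 3.59 ± 2.17. In complexes III and V the groups overlapped.

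Of the 6 mitochondrially encoded genes, COX2 passed on deposited TPM, at -1.09 (SE 0.30, limma adjusted p = 0.0216), with an SE pooled over genes of like level. Its deposited TPM was 6240, 8824 and 12008 in the wild boars and 11617, 20457 and 27100 in the domestic pigs, so the groups overlapped. After rescaling 0 of the 6 passed, COX2 was at -0.51 (SE 0.58, limma adjusted p = 0.554) and their median was -0.10 (0.06 with quantile scaling). ATP8 had the largest change of the 6 after rescaling and was above 0, at 1.30 (limma adjusted p = 0.0853), with deposited TPM of 1117, 1220 and 3313 in the wild boars and 428, 2438 and 977 in the domestic pigs. The spread of COX1 was wide in the domestic pigs, with deposited TPM of 13933, 18180 and 49681 against 15647, 9690 and 19577 in wild boar. Mitochondrial genes have nuclear copies, and the rule by which the authors shared reads between them was not given in the sources used here.

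**Figure D5:**
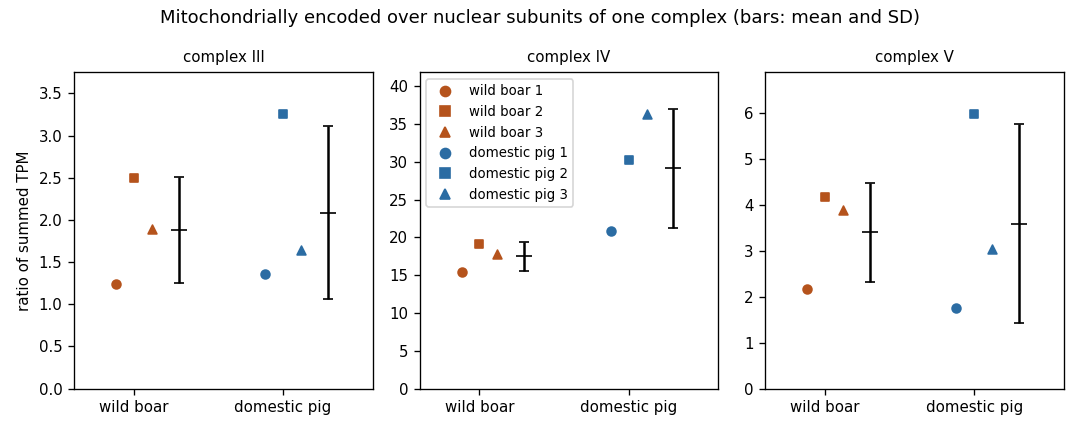
Ratio of the summed TPM of mitochondrially encoded subunits to that of the nuclear members of the same complex, with a point per library and the mean and SD of each group (n = 3 each, axes from 0). In complex IV the 3 wild boars lie between 15.4 and 19.2 and the 3 domestic pigs between 20.8 and 36.4, while complexes III and V overlap.

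Other genes of the same pathway were followed through lists chosen by function, and their log2 changes are given after rescaling unless stated. Over all genes tested, 11.6% passed as higher in wild boar and 7.91% as lower after rescaling, the background for the counts of each list. Of 28 complex I subunits, the entry of electrons from NADH, 11 rose and 0 fell, with a median of 0.47. NDUFV1, which binds NADH, NDUFC2 and NDUFA6 rose by 0.59, 0.72 and 0.75. On deposited TPM their median was -0.08 and 0 passed, also at an unadjusted p under 0.05. CYCS, the cytochrome c that links complexes III and IV, was at 0.07 and NDUFA4, now counted as a subunit of complex IV, at 0.01, and neither passed.

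Assembly factors that passed were higher in wild boar, in a fit where 11.6% of all genes passed as higher and 7.91% as lower. Of 20 complex IV factors tested, 3 rose and 0 fell, with a median of 0.10. SLIRP, which stabilises mitochondrial messenger RNA, rose by 1.63, from 19.6, 21.8 and 23.6 deposited TPM in the domestic pigs to 51.0, 35.6 and 55.3 in wild boar. SURF1 and COX19, needed to build and load the complex with copper and haem, rose by 0.53 and 0.45. Of 8 complex III factors UQCC4 and UQCC3 rose, by 0.50 and 0.49, and of 5 complex V factors ATPAF2, a chaperone of the alpha subunit, rose by 0.67. SDHAF2, which attaches flavin to SDHA and was the 1 complex II factor tested, rose by 0.59. None of these factors passed on deposited TPM, where SLIRP was at 1.07 (limma adjusted p = 0.179). COX19 and UQCC3 missed the threshold with quantile scaling, where LYRM7, a complex III factor that helps insert the Rieske protein, passed as lower. Here LYRM7 was at -0.36 (limma adjusted p = 0.0834).

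Enzymes upstream, carriers downstream and genes of the inner membrane's folds were listed too, beside the same background of 11.6% higher and 7.91% lower. Of 16 tricarboxylic acid cycle genes OGDH and MDH2 rose, by 0.88 and 0.64, 0 fell, and the median was 0.16. Of 7 carrier, channel and kinase genes that move ATP out of mitochondria, VDAC1 and SLC25A6 rose by 0.56 each. Of 7 cristae organizers MICOS13 and CHCHD6 rose by 0.62 and 0.49 and APOOL fell by 0.42. On deposited TPM 0 genes of these 3 lists passed, and APOOL alone had an unadjusted p under 0.05. With quantile scaling VDAC1, SLC25A6 and CHCHD6 missed the threshold, and DLD of the cycle passed as lower.

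Regulators of mitochondrial biogenesis gave no higher call. Of 12 tested, 0 rose and 2 fell after rescaling, where 11.6% of all genes rose and 7.91% fell, and the median was -0.01. NRF1 fell by 0.39 (limma adjusted p = 0.0498) and GABPB1 fell by 0.37 (limma adjusted p = 0.0361), and both passed as lower with quantile and upper-quartile scaling too. NRF1 and GABPB1 belong to the transcription factors known to act on promoters of nuclear respiratory genes. PPARGC1A, the coactivator that drives biogenesis, was at 0.03. After rescaling 6 of the 12 were above 0, and 5 had an unadjusted p under 0.05. Besides NRF1 and GABPB1 these were ESRRA at 0.45 (limma adjusted p = 0.111), PPARGC1B at 0.33 (limma adjusted p = 0.0555) and GABPA at -0.30 (limma adjusted p = 0.0801). On deposited TPM NRF1 was at -0.87 and GABPB1 at -0.76, 0 of the 12 passed, and 3 had an unadjusted p under 0.05.

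Markers of other cells differed between the same libraries. Their counts, also those of neurons and glia below, stand beside 11.6% of all genes that rose and 7.91% that fell after rescaling. All 4 tested red blood cell genes rose after rescaling, HBB by 2.39. Their list summed to between 521.7 and 760 deposited TPM in the wild boars and between 123 and 312 in the domestic pigs. Of 10 mural cell and fibroblast markers 3 rose (TAGLN, ACTA2 and MYH11), and the list summed to between 53.3 and 93.4 deposited TPM in the wild boars and between 58.4 and 108 in the domestic pigs. MYH11 missed the threshold with quantile and upper-quartile scaling. RGS5, a pericyte marker of the same list, was at -0.36 (limma adjusted p = 0.211), and at -0.93 on deposited TPM, where no other gene of the list had an unadjusted p under 0.05. Of 4 endothelial markers CLDN5 rose, by 1.34, and the list summed to between 17.3 and 39.3 deposited TPM in the wild boars and between 12.3 and 21.7 in the domestic pigs. The rescaled endothelial and mural sums did not overlap between the groups, with wild boar higher in both.

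Of 9 neuron markers CAMK2A, SLC17A7 and RBFOX3 rose, by 0.92, 0.87 and 0.48, and 0 fell. CAMK2A and RBFOX3 missed the threshold with quantile scaling. Of 6 microglial markers C1QA rose by 0.78, while P2RY12 was at -0.60 (limma adjusted p = 0.106, unadjusted 0.0344). Of 6 astrocyte, 5 oligodendrocyte and 3 muscle markers tested 0 passed. AQP4, of astrocytes, was at -0.55 (limma adjusted p = 0.0972) and passed as lower with quantile scaling. None of the listed genes in the file was at 0 in all libraries. On deposited TPM HBB and AHSP, both of red blood cells, were the only markers that passed. The part of these cell types in the members' differences was not tested.

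Circular RNAs, loops made by back-splicing, gave a second readout. Of the members, 21 of 35 could be placed by gene name in the Sscrofa11.1 RefSeq annotation. Of 11375 circular RNAs, 2 lay inside these 21 genes, both in ATP5F1A. One (ssc_circ_1055, chromosome 1, 95743460 to 95744239, minus strand) was at 0, 0.0629 and 0.0623 TPM in the wild boars and at 0.119, 0.177 and 0.0481 in the domestic pigs. The other (ssc_circ_1056, chromosome 1, 95743460 to 95748901, minus strand) was at 0.0337, 0.0417 and 0 TPM in the wild boars and at 0.0262, 0.117 and 0.0638 in the domestic pigs. Neither passed in limma (adjusted p = 0.557 and 0.602, unadjusted p = 0.207 and 0.262), in a fit where 0.134% of circular RNAs did. Positions are those of the deposited table counted from 1, whose genome build was not given in the sources used here.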

How the data were processed

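RNA was depleted of ribosomal RNA and made into stranded libraries, per the labels' protocols. STAR 2.6.0c and BWA 0.7.17 are named without roles, per the submitters' processing notes. Which build, annotation and counting rule the authors used is not given in the sources used here. They deposited TPM of genes and of circular RNAs, per the file headers, and 0 columns of per-sample values went unused. Symbols came from the supplied identifier table.

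Members and gene lists were chosen with earlier results of these data known. The 11752 genes that reached a TPM of 1 in 3 or more libraries were tested on log2(TPM + 1) with limma 3.58.1 and a mean-variance trend in R 4.3.3, two-sided, with Benjamini-Hochberg adjustment over all of them and a threshold of 0.05. Fold changes on this scale understate changes of low genes. Rescaling used median ratios over genes above 0 in all 6 libraries, with log2 factors of -0.21, -0.81 and 0.18 for the wild boars and -0.17, 0.60 and 0.47 for the domestic pigs. On deposited TPM the fit pooled the variance over genes of like level, so a gene's own spread hardly enters those SE. Circular RNAs above 0 in at least 3 libraries were tested on log2(TPM + 0.045). Genes of circular RNAs were assigned by position within 10 bases. The labels number 3 animals per group, and p-values measure the spread between these 6 libraries only. Sums and ratios over members have no test. Every member is accounted for. Those described in full passed in either fit, had the highest level of their complex, belonged to an isoform pair, or had the lowest p of their complex in a direction in either fit. Other genes were named after their values were seen. Of each list, up to 3 passing genes of the lowest p were named. Protein lengths and promoter motifs were planned and are not analysed here, and a check of gene length was void because 60% of members, under 80%, had a value. The tests were also run on simulated data, whose outcome is not given here. Beyond a shift of each whole library, the simulated noise was independent between genes. It thus covers neither deviations shared by the members nor the confounding of group with source.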

Additional observations from a re-analysis of the deposited data

How the results depend on the processing

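On deposited TPM 0 of 34 members passed in every fit except that with array weights, where 22 passed as lower together with 9518 of all 11752 genes; these weights did not converge and gave wild boar 1 a weight of 3770, and the same fit put COX4I1 and COX6A1 at -0.32 and -0.33. After rescaling 5 members passed, and 1 without the filter on low values, 8 with array weights, 3 with quantile scaling and 0 to 4 without 1 library. With the replicate block (replicate number as a factor) 1 passed, ATP5MC3. The numbers name separate animals, and same-numbered libraries did not deviate together (correlations 0.11, -0.07 and -0.16). The members' median stayed above 0 after rescaling in all fits run, between 0.21 and 0.50, and was between -0.36 and 0.08 on deposited TPM without 1 library.

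Genes passing over the whole table numbered 188 on deposited TPM, 6 without the filter, 49 at TPM of at least 5, 285 without the trend, 70 with the block and 58 to 665 without 1 library. After rescaling they numbered 2292, 1294 with the block and 822 to 2232 without 1 library. Of these 2292, 59.5% were higher in wild boar; the share was 44.9% without the filter, 42.5% with quantile scaling, 48.3% with upper-quartile scaling and 45.4% with factors over the tested genes, an alternative chosen after seeing the data. In these 4 fits 1, 3, 5 and 5 members passed, all higher, and 33, 27, 31 and 31 members were above 0. Without 1 library the isoform differences ran from -0.54 to -0.05 (COX4I2), -0.28 to 0.11 (COX6A2), -0.16 to 0.29 (COX7A1) and -0.44 to -0.04 (ATP5MC1). The log2 ratio of nuclear to mitochondrial transcripts differed by 0.53 to 0.93 in complex IV, -0.27 to 0.36 in complex III and -0.50 to 0.38 in complex V. Over 3 other scalings, list medians near 0 changed sign (complex V assembly factors -0.07 to -0.05, cristae organizers -0.02 to -0.01, CYCS with NDUFA4 -0.18 to -0.01). With quantile scaling so did those of the neuron (-0.16), astrocyte (-0.19) and mitochondrially encoded lists (0.06), and the astrocyte median was -0.01 with factors over the tested genes. No paired design was stated. The cause of these changes was not tested.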
